A study of Mus musculus with 106 samples.

Results

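In total, 8 genes of gluconeogenesis and ketone body metabolism, of the 21647 to 23420 genes in each count table, were followed in 11 mouse tissues of animals kept in the cold (10 °C), in the warmth (34 °C) or at room temperature (22 °C). They were chosen by symbol: Pck1, G6pc and Fbp1 for gluconeogenesis, and Bdh1, Oxct1, Acat1, Aacs and Slc16a1 for the making, use and transport of ketone bodies, and each had 1 row in each of the 4 tables. All mice were wild type male C57BL/6J, 8 weeks old at the start and labelled as 11 or 12 weeks old at harvest. Cold mice spent 5 days at 18 °C, 5 days at 14 °C and then 2 weeks at 10 °C, and warm mice spent 4 weeks at 34 °C. The cold and warm mice came from different suppliers, and each had its own 22 °C controls. For quadriceps the sample labels do not divide the 6 libraries at 22 °C between the 2 experiments. Their column names tie 3 to each. The main quadriceps comparisons used all 6 at both temperatures, so each includes controls of the other experiment. A library was a pool of 2 mice, with 3 libraries a group, but bone marrow (6 a group) and spinal cord (5 a group) were single mice, and 5 of the 6 brown fat libraries of the warm experiment were single mice. The cold experiment covered interscapular brown fat (iBAT), inguinal subcutaneous fat (ingSAT), perigonadal visceral fat (pgVAT), liver, ileum, quadriceps, spleen, bone marrow, spinal cord, brain without hypothalamus, and hypothalamus. The warm experiment covered iBAT, liver, ileum, quadriceps and brain, and warm ingSAT and pgVAT were not analysed here.

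Gluconeogenesis makes glucose from lactate, amino acids and glycerol, mainly in liver and kidney. Pck1, the cytosolic phosphoenolpyruvate carboxykinase, starts the pathway from oxaloacetate, Fbp1 (fructose-1,6-bisphosphatase) acts in its middle, and G6pc, the catalytic subunit of glucose-6-phosphatase, releases the free sugar. In fat, Pck1 instead feeds glyceroneogenesis, which makes the glycerol backbone on which fatty acids are re-esterified. Ketone bodies are made in liver mitochondria, where Acat1 (acetoacetyl-CoA thiolase) joins acetyl groups and Bdh1 (3-hydroxybutyrate dehydrogenase) interconverts acetoacetate and 3-hydroxybutyrate. Other tissues burn them through Oxct1, the CoA transferase that liver lacks, and Slc16a1 (the monocarboxylate transporter MCT1) carries ketone bodies, lactate and pyruvate across membranes. Aacs, acetoacetyl-CoA synthetase, activates acetoacetate in the cytosol for the synthesis of fatty acids and cholesterol.

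The 2 promoters shown are those of the genes with the most calls among the 8, Aacs and Pck1, each from 250 bases before to 50 after the RefSeq start (GRCm38.p6, both on the plus strand, 5′ to 3′). They span chr2:173152823-173153122 for Pck1 and chr5:125475623-125475922 for Aacs. Capitals mark the only match in each to the 6 motifs searched on both strands. The 2 forms of the cAMP response element were TGACGTCA and TTACGTCA. The core of a sterol response element was CACCCCAC. The E box was spelled CACGTG. The FOXO motif was spelled GTAAACA, and the search for a TATA box used the letters TATAAA.
Pck1: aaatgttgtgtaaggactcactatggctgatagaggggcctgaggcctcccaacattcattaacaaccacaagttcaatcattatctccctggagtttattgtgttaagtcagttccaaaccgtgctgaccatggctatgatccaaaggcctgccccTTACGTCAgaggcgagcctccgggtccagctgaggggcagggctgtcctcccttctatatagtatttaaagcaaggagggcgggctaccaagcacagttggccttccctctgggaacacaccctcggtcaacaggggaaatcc
Aacs: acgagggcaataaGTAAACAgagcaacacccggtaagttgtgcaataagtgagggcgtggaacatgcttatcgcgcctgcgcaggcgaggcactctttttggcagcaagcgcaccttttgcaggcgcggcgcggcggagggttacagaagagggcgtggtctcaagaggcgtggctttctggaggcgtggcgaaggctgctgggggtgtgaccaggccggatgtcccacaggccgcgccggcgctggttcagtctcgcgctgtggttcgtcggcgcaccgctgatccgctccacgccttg
In Pck1 the letters TTACGTCA began 93 bases before the start, and 0.499% of 32851 mouse promoters of the same length held them on either strand. In Aacs the letters GTAAACA began 237 bases before the start, against 3.65% of all promoters. Of the 7 members with a promoter in the table, G6pc held TATAAA 29 bases before its start (13.6% of all promoters) and Slc16a1 held CACGTG 200 bases before it (7.15%). The promoters of Fbp1, Bdh1 and Oxct1 held none of the 6 in these windows. These are matches of letters, no match overlapped another, and no binding was measured.

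In GENCODE vM21 (GRCm38, the mm10 assembly) all 8 are protein-coding genes. Pck1 (ENSMUSG00000027513) lies at chr2:173153048-173159273, G6pc (ENSMUSG00000078650) at chr11:101367561-101377903, Bdh1 (ENSMUSG00000046598) at chr16:31422280-31458901, Oxct1 (ENSMUSG00000022186) at chr15:4026383-4155344, Aacs (ENSMUSG00000029482) at chr5:125475814-125517410 and Slc16a1 (ENSMUSG00000032902) at chr3:104638668-104658462, all on the plus strand. Fbp1 (ENSMUSG00000069805, chr13:62864753-62888282) and Acat1 (ENSMUSG00000032047, chr9:53580522-53610382) lie on the minus strand. An antisense transcript overlaps an exon of Bdh1 and another RNA gene on the opposite strand overlaps an exon of Oxct1, so where counting ignored strand their reads cannot be told apart. Counts cover whole genes and do not separate isoforms.

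Total counts ran from 4262403 to 58290770 per library in the cold comparisons (median 17690573) and from 29545458 to 62880248 in the warm ones (median 42106646). Levels are CPM, read counts brought to a common library total, scaled within each comparison by the trimmed mean of M values (TMM). A call needed a p, before adjustment, no larger than 0.05 in edgeR's quasi-likelihood test together with a change of more than 1.5-fold, and adjusted p-values are Benjamini-Hochberg over all genes tested. The labelled tissues carried their defining markers: the summed muscle markers of quadriceps were at least 121520 CPM, the hepatocyte markers of liver at least 57119 CPM and the brown adipocyte markers of iBAT at least 4612 CPM. The share of all genes whose groups did not overlap ran from 1.61% in spinal cord to 48.6% in iBAT at 34 °C. The members' separations are read beside the share in their own comparison.

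Of the 128 combinations of gene and comparison, 106 passed the filter on low counts, and 21 of these were called, 13 higher and 8 lower than at 22 °C. Over all genes tested, the share called ran from 0.193% in brain to 19.4% in iBAT, both at 34 °C. Of the lower calls, 3 were in brain at 10 °C and were lost without control replicate 2. The Pck1 call in hypothalamus rested on 0 to 56 counts a library. Of the 106, 12 had an adjusted p under 0.05 and 8 met both criteria. By comparison, 0% to 28.9% of all genes had an adjusted p under 0.05. The calls fell mainly on Aacs and Pck1, with 7 each, and Aacs was called higher in 5 of the 11 tissues at 10 °C and lower in none. In those 5, from 0.74% (liver) to 7.2% (ingSAT) of all genes were called higher. Bdh1 had no call in its 15 tested comparisons by edgeR, with 3 at an unadjusted p of at most 0.05.

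**Figure D1:**
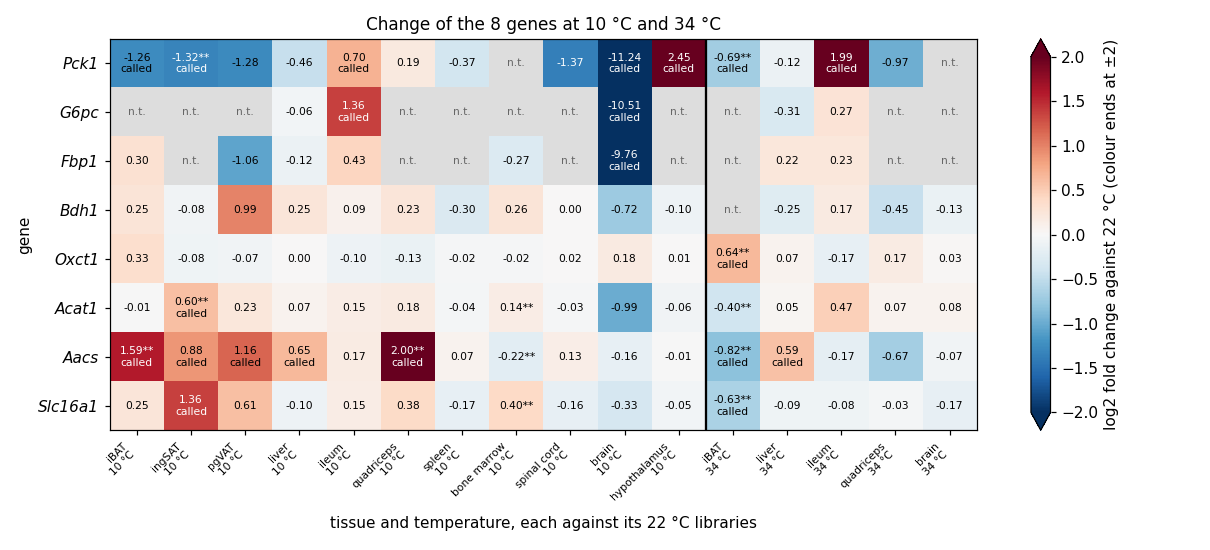
Fitted log2 fold change of each of the 8 genes (vertical axis) in each tissue and temperature against its 22 °C libraries (horizontal axis), with colour running from blue (lower) to red (higher) and ending at 2. Cells marked called passed the unadjusted limits, 2 asterisks mark an adjusted p under 0.05 and n.t. marks genes under the count filter, and most calls sit in the Pck1 and Aacs lines and in the fat columns.

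At 22 °C the gluconeogenic genes were the most restricted of the 8. Mean Pck1 was 5615 ± 2352 CPM in iBAT (SD, n = 3), 3568 ± 611 in ingSAT, 2986 ± 447 in liver and 2113 ± 858 in pgVAT, and neighbours in this order overlapped. Quadriceps (44.96 ± 26.7, n = 6) and ileum (37.7 ± 5.48) followed, and spleen, spinal cord, hypothalamus and bone marrow averaged at most 3.72 CPM. Mean G6pc was 817 ± 259 CPM in liver and 7.19 ± 2.15 in ileum, and Fbp1 was 1081 ± 120.1 in liver and 7.66 ± 0.901 in ileum. Brain replicate 2 of the 22 °C group stood apart from this order and is described with the nervous tissues.

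The ketone body genes were spread more widely. Bdh1 was highest in liver (176 ± 13.4 CPM), ahead of ileum (90.3 ± 9.80), and lowest in the 3 fats, whose means ran from 1.62 to 2.41 CPM. Oxct1 went the other way, with 472 ± 68.9 CPM in quadriceps and 6.54 ± 2.17 in liver, the lowest of the 11 tissues, and from quadriceps down to spinal cord each tissue overlapped the next in its order. Acat1 was highest in iBAT (1016 ± 62.6 CPM), then liver (424 ± 48.3). Aacs was highest in ingSAT (356 ± 153 CPM), iBAT (353 ± 107) and pgVAT (266 ± 34.0), which overlapped, and lowest in quadriceps (8.92 ± 3.07). Slc16a1 was highest in iBAT (743 ± 79.8 CPM) and bone marrow (386 ± 32.3), and the bone marrow and spleen libraries overlapped. Bone marrow and spinal cord come from tables of their own and quadriceps from the table of the warm experiment, so their place in these orders is a description.

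**Figure D2:**
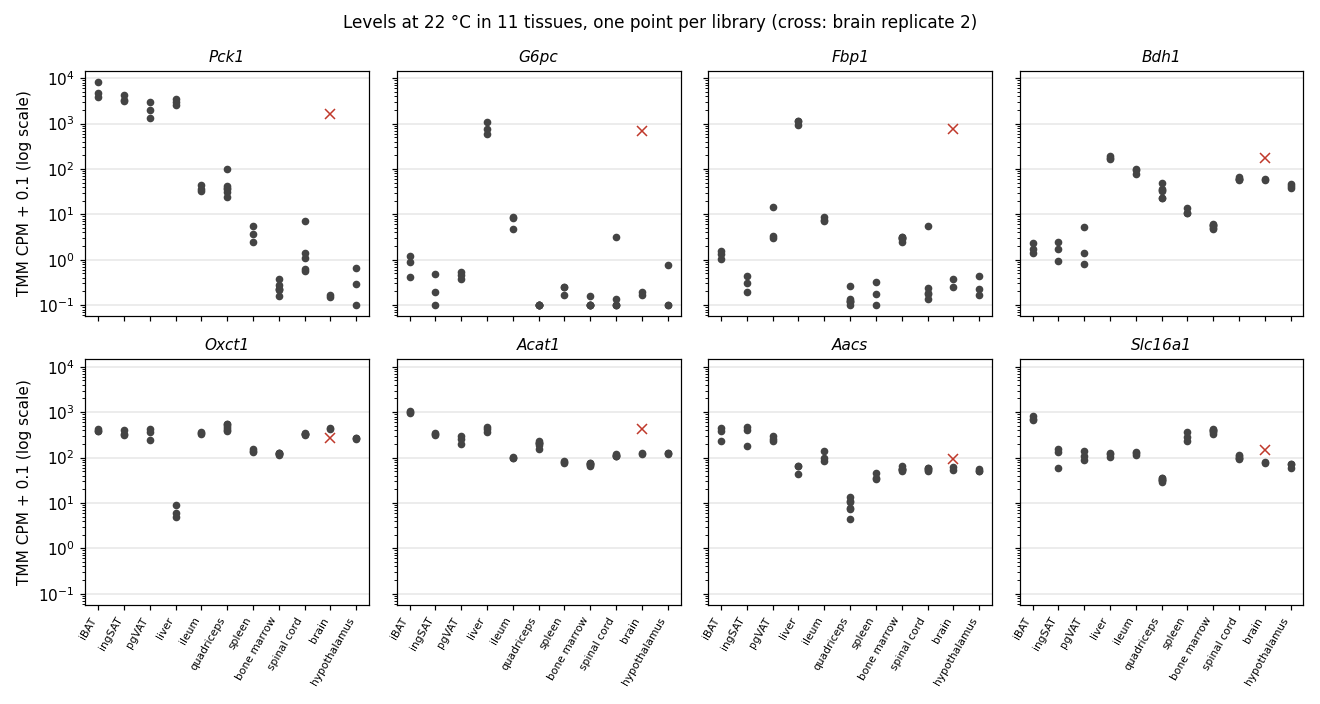
Level of each gene at 22 °C in the 11 tissues of the cold experiment (horizontal axis), as TMM CPM plus 0.1 on a log scale (vertical axis), with 1 point a library and a red cross for brain replicate 2. The quadriceps points include the warm-set controls. G6pc and Fbp1 stand high in liver and in the crossed brain library, Oxct1 is low in liver alone, and Pck1 is highest in the 3 fats and liver.

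Over the 16 groups of the 8-tissue table, the genes whose mean log2 CPM ran most like that of each member differed by gene. Among 14539 genes, Ces1d (r = 0.979), Adipor2 (0.976) and Cebpa (0.968) were most like Pck1. Tat (0.999), Ugt2b5 (0.998) and Baat (0.998) were most like G6pc, and Aadac (0.993), Cfi (0.990) and Ces1e (0.990) were most like Fbp1. Slc25a1, the mitochondrial citrate carrier, was among the 3 most like Aacs (0.956), after Bag1 (0.960) and Echdc1 (0.958), and Mut, methylmalonyl-CoA mutase, led for Acat1 (0.986). These are Pearson correlations across tissue groups that share libraries between genes, and the brain group at 22 °C holds the library that stands apart.

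In brown fat at 10 °C, Aacs rose and Pck1 fell. These were 2 of the 7 members tested, where 13.2% of all genes tested were called, 11.3% had an adjusted p under 0.05 and 33.3% had groups that did not overlap. Aacs was at 379, 445 and 235 CPM at 22 °C and at 817, 1296 and 1072 CPM at 10 °C, so every cold library lay above every control. The change was 1.59 on the log2 scale (SE 0.257, 3.01-fold, adjusted p = 0.0066, edgeR quasi-likelihood test). Pck1 was at 3760.2, 4824 and 8260.3 CPM at 22 °C and at 1024, 4126 and 1905 CPM at 10 °C. Its groups overlapped, the change was -1.26 (SE 0.48, adjusted p = 0.126), and the call was lost when the cold replicate 1 or 3 or the control replicate 3 was left out. Oxct1 (0.33, adjusted p = 0.185), Slc16a1 (0.25, 0.369) and Acat1 (-0.01, 0.975) were not called. G6pc was under the filter, with 4, 14 and 26 counts at 22 °C and 0, 0 and 2 at 10 °C. Beside it, the 5 hepatocyte markers, all of which were in the table, summed to 42.2 to 76.1 CPM at 22 °C and 0.509 to 1.39 CPM at 10 °C, and the muscle markers to 5649 to 8159 CPM and 2223 to 4682 CPM. The part of these markers in the changes was not tested, and in bulk tissue fewer cells of a type and less RNA per cell cannot be told apart.

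Inguinal fat had the most members called in the cold, 4 of 6 tested (16.3% of all genes, with 7.51% at an adjusted p under 0.05 and 32.8% without overlap), with Pck1 lower and Aacs, Acat1 and Slc16a1 higher. Pck1 was at 4268, 3143 and 3295 CPM at 22 °C and at 1439.7, 1404 and 1439 CPM at 10 °C. The groups were far apart and the cold libraries nearly equal, with a change of -1.32 (SE 0.193, 2.5-fold lower, adjusted p = 0.0135). Acat1 was at 309.5, 339 and 324 CPM and rose to 535, 441 and 497 CPM, without overlap (0.60, SE 0.131, adjusted p = 0.0417). Slc16a1 was at 151, 135 and 59.7 CPM against 332, 284 and 271 CPM, again without overlap, and the change of 1.36 (SE 0.329, 2.57-fold) had an adjusted p of 0.0538. Aacs was at 411, 474 and 183 CPM against 802, 528 and 638 CPM (0.88, SE 0.355, adjusted p = 0.163). The Aacs call was lost without cold replicate 1 or 3 or control replicate 1, and the Acat1 call without cold replicate 1 or control replicate 1. In the same libraries the 4 brown adipocyte markers summed to 68.7 to 125.6 CPM at 22 °C and 1928 to 2527 CPM at 10 °C. The 5 muscle markers summed to 2681, 2650 and 1048 CPM at 22 °C and to 1182, 24.9 and 1602 CPM at 10 °C, with cold replicate 2 far below the others. The part of either marker list in these changes was not tested.

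Perigonadal fat had 1 of 7 members called (7.94% of all genes, with 11.8% without overlap), and no gene at all reached an adjusted p under 0.05 by edgeR. Aacs was at 301, 234 and 262 CPM at 22 °C and at 394, 841 and 545 CPM at 10 °C, without overlap (1.16, SE 0.374, 2.23-fold, adjusted p = 0.593). The call was lost without control replicate 2 or 3. Pck1 was at 2030.0, 1299.9 and 3009 CPM against 242, 1744 and 624 CPM (-1.28, SE 0.752, adjusted p = 0.633), and was called without cold replicate 2 (-2.29). That replicate had 2.39 CPM of the 4 summed epididymis markers, where cold replicates 1 and 3 had 15864.5 and 19620.6 CPM and the controls 574 to 2582 CPM. Its adipocyte markers summed to 27997 CPM, against 12250.3 and 8726 CPM in the other cold libraries and 18617 to 31072 CPM in the controls. The part of these tissues in the perigonadal values was not tested.

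The change of a member at 10 °C was compared between tissues in 1 model. It treated the libraries as independent, and the labels do not say which tissues came from the same mice. The number of members that passed the filter in both tissues was 6 for ingSAT and iBAT, 7 for pgVAT and iBAT, 6 for ingSAT and pgVAT and 7 for liver and iBAT. None of these differed at an adjusted p under 0.05 between ingSAT and iBAT (0.973% of all genes did), pgVAT and iBAT (2.96%), ingSAT and pgVAT (1.39%) or liver and iBAT (1.46%), by edgeR. At an unadjusted p of at most 0.05 there was 1, Slc16a1 between ingSAT and iBAT, and 0 in the other contrasts. G6pc was under the filter in the 3 fats and entered the model only through liver, so its differences are not read. Without cold replicate 2 of pgVAT, the library with few epididymis markers, Acat1 (0.76, adjusted p = 0.0309) and Slc16a1 (1.38, adjusted p = 0.0172) differed between ingSAT and pgVAT. For Pck1 the difference between ingSAT and iBAT was -0.06 (SE 0.754, adjusted p = 0.994). For Slc16a1 that difference was 1.12 (SE 0.467, adjusted p = 0.275).

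Liver, the main site of both pathways, had 1 of 8 members called at 10 °C (3.28% of all genes) and 1 of 8 at 34 °C (3.38%), Aacs both times. Aacs was at 64.2, 43.4 and 64.1 CPM at 22 °C against 68.6, 96.0 and 104 CPM at 10 °C (0.65, SE 0.181, adjusted p = 0.133). At 34 °C it was at 108, 87.9 and 60.9 CPM against 129, 136 and 122 CPM (0.59, SE 0.180, adjusted p = 0.253). Neither pair of groups overlapped, as for 24.1% of all genes at 10 °C and 17% at 34 °C, and each call was lost when 1 of 2 libraries was left out, the cold replicate 3 or control replicate 2 at 10 °C and the control library 3 or warm library 2 at 34 °C. Pck1 was at 3400.3, 3045 and 2513 CPM at 22 °C and 2239, 2423 and 1865 CPM at 10 °C, and at -0.46 (SE 0.136, adjusted p = 0.141) it stayed under the fold limit. G6pc was at 1094, 777 and 581 CPM against 940.0, 891 and 528 CPM (-0.06, SE 0.253, adjusted p = 0.924), and Fbp1 was -0.12 (SE 0.0979, adjusted p = 0.532). At 34 °C, Pck1 (-0.12, adjusted p = 0.914), G6pc (-0.31, 0.823) and Fbp1 (0.22, 0.318) were not called. Bdh1 was 0.25 (SE 0.109, adjusted p = 0.269) at 10 °C and -0.25 (SE 0.0979, adjusted p = 0.397) at 34 °C, and Oxct1 reached at most 8.96 CPM in any liver library.

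At 34 °C, brown fat had 4 of 5 tested members called, where 19.4% of all genes were called and 28.9% had an adjusted p under 0.05 and 48.6% had no overlap. Pck1, Aacs and Slc16a1 fell and Oxct1 rose. Pck1 was at 6153, 5131 and 5389.9 CPM at 22 °C and at 3009, 4213 and 3088 CPM at 34 °C (-0.69, SE 0.159, adjusted p = 0.0183). Aacs was at 425, 399 and 306 CPM against 171, 217 and 251 CPM (-0.82, SE 0.177, adjusted p = 0.0151). Slc16a1 was at 348, 267 and 388 CPM against 244, 236 and 169 CPM (-0.63, SE 0.186, adjusted p = 0.0409), a call lost without control library 3 or warm library 3. The groups did not overlap for any of these 3 genes. Oxct1, the enzyme of ketone body use, went from 382, 292 and 352 CPM to 573, 407 and 623 CPM, without overlap (0.64, SE 0.179, adjusted p = 0.0343), a call lost without control library 2 or warm library 1 or 3. Acat1 was at 1270.1, 1003 and 1116 CPM against 817, 796 and 950.3 CPM (-0.40, SE 0.125, adjusted p = 0.0479), under the fold limit. Scaling by library size alone moved the median of all genes here from 0.02 to 0.30, and Pck1 (-0.43), Aacs (-0.56) and Slc16a1 (-0.36) then kept their sign without being called. The brown adipocyte markers summed to 9568 to 12649 CPM at 22 °C and 4612 to 5993 CPM at 34 °C. The muscle markers summed to 2.80, 4232 and 8.08 CPM at 22 °C and to 3311, 894 and 1020 CPM at 34 °C. The part of either marker list was not tested. The 2 temperatures were set against different controls from different mice, kits and sites, so Aacs higher in the cold and lower in the warmth are 2 separate comparisons.

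The change of Aacs at 34 °C differed between liver and brown fat, by 1.40 (SE 0.285, adjusted p = 0.0123, edgeR interaction contrast). It was 0.59 in liver and -0.81 in iBAT in that model. The model treated the libraries as independent with a shared estimate of spread, though most iBAT libraries there were single mice and the liver libraries pools of 2. Aacs was the 1 to differ of the 5 members that passed the filter in both tissues, where 9.1% of all genes in the model did. G6pc, Fbp1 and Bdh1 entered that model only through liver, and their differences are not read.

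**Figure D3:**
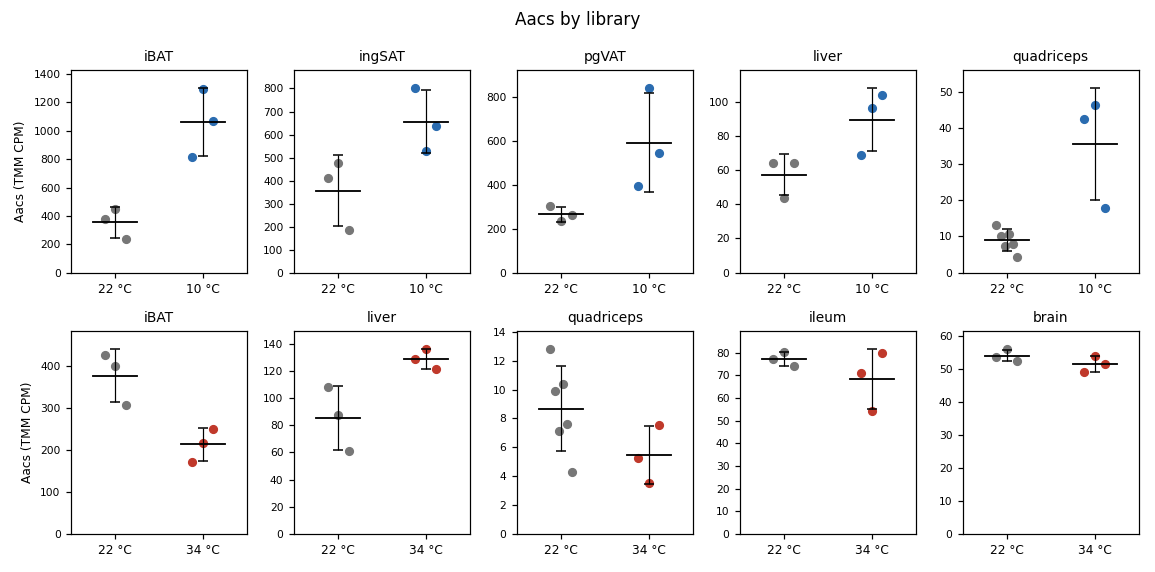
Aacs in TMM CPM (vertical axes, each from 0) at 22 °C and at 10 °C (top) or 34 °C (bottom) in 10 comparisons, 1 point a library, with the mean (line) and SD (bar). All cold libraries of iBAT, ingSAT, pgVAT, liver and quadriceps lie above their controls, and the 34 °C libraries lie below the controls in iBAT and above them in liver.

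Quadriceps had 1 of 6 members called at 10 °C (3.35% of all genes, with 0.338% at an adjusted p under 0.05 and 7.54% without overlap). Aacs ran from 4.42 to 13.2 CPM at 22 °C (median 8.96, 6 libraries) and was 42.7, 46.4 and 17.8 CPM at 10 °C. No library overlapped, and the change of 2.0 on the log2 scale (SE 0.328, 3.99-fold) had an adjusted p of 0.0343. With only the 3 control libraries that the column names tie to the cold set, it was 2.23 (SE 0.423, adjusted p = 0.185). The 5 adipocyte markers summed to 193 to 552 CPM at 22 °C and to 709.9, 789.7 and 274.8 CPM at 10 °C, the same order as Aacs in the 3 cold libraries, and their part was not tested. Slc16a1 was 29.1 to 36.1 CPM (median 32.3) against 48.8, 42.9 and 36.1 CPM (0.38, SE 0.104, adjusted p = 0.171). At 34 °C, with the same 6 controls, 0 of 6 members were called by edgeR's quasi-likelihood test (1.25% of all genes) and 0 had an unadjusted p of at most 0.05. DESeq2 and the exact test each called 1, as did the quasi-likelihood test with the filterByExpr filter or with all genes over 1 count. In the main fit at 34 °C, Aacs was 5.25, 3.52 and 7.53 CPM (-0.67, SE 0.318, adjusted p = 0.913) and Pck1 was -0.97 (SE 0.502, adjusted p = 0.954). Against the 3 warm-set controls alone both were called lower, Aacs at -0.87 and Pck1 at -1.38 (adjusted p = 1 for each).

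Ileum had 2 of 8 members called at 10 °C (2.71% of all genes, with 23.6% without overlap), both gluconeogenic. G6pc was at 4.72, 8.15 and 8.69 CPM at 22 °C and 15.7, 26.6 and 13.5 CPM at 10 °C, without overlap (1.36, SE 0.313, 2.58-fold, adjusted p = 0.124). Pck1 was at 43.5, 37.0 and 32.6 CPM against 54.0, 85.2 and 44.2 CPM (0.70, SE 0.235, adjusted p = 0.217), also without overlap, and was not called without cold replicate 2 or control replicate 3. The 4 enterocyte markers summed to 4433 to 4996 CPM at 22 °C and 8244 to 8481 CPM at 10 °C. At 34 °C, Pck1 was the 1 of 8 called (2.83% of all genes), at 57.3, 62.4 and 20.6 CPM against 31.4, 301 and 224 CPM. Those groups overlapped, the call was lost without any 1 of 5 of the 6 libraries (1.99, SE 0.798, adjusted p = 0.594), and the same 3 warm libraries had enterocyte markers of 6460.1, 20639 and 12453 CPM against 6317 to 8982 CPM at 22 °C. The part of the enterocyte content was not tested.

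**Figure D4:**
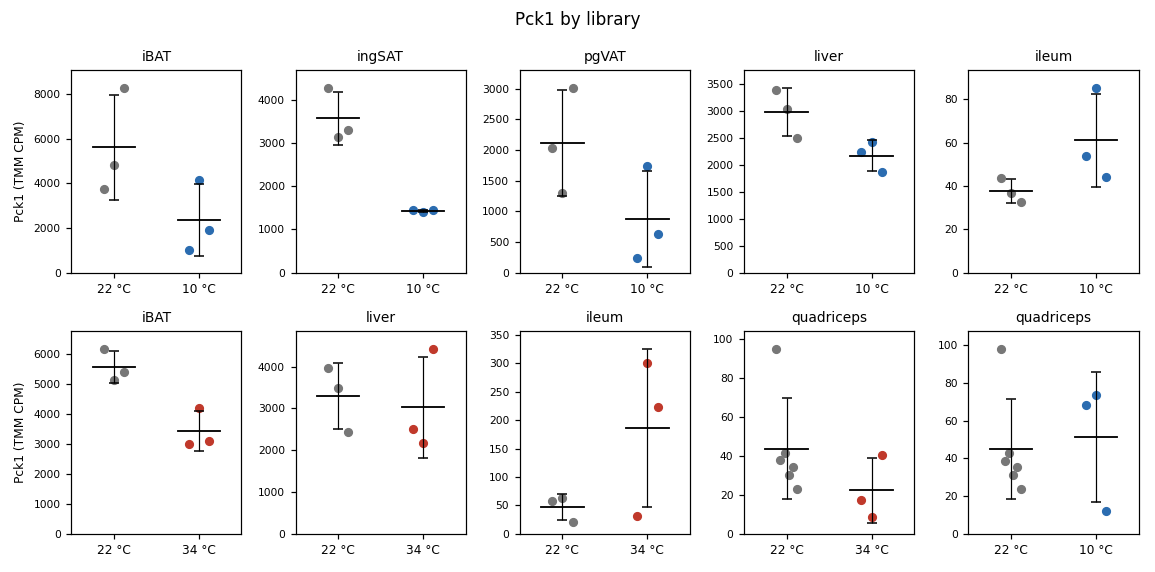
Pck1 in TMM CPM (vertical axes, each from 0) at 22 °C and at 10 °C or 34 °C in 10 comparisons, 1 point a library, with the mean (line) and SD (bar). The cold libraries lie below every control in ingSAT and liver, overlap them in iBAT and pgVAT, and lie above them in ileum.

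Bone marrow, with 6 single mice a group, had 0 of 6 members past the limits by edgeR (1.29% of all genes), but 3 with an adjusted p under 0.05 (19% of all genes, with 5.84% without overlap), and 4 at an unadjusted p of at most 0.05. Slc16a1 ran from 331 to 422 CPM at 22 °C (median 393) and from 465 to 542 CPM at 10 °C (median 523), without overlap (0.40, SE 0.0595, adjusted p = 0.00296). Aacs ran from 49.4 to 63.7 CPM (median 56.1) against 41.6 to 52.4 CPM (median 49.3), at -0.22 (SE 0.0677, adjusted p = 0.0357). Acat1 ran from 66.1 to 75.9 CPM (median 72.3) against 74.6 to 85.6 CPM (median 79.9), at 0.14 (SE 0.0465, adjusted p = 0.0459). All 3 are under the fold limit, and Aacs and Acat1 overlapped. Spleen had 0 of 6 members called by edgeR (2.68% of all genes) and 0 at an unadjusted p of at most 0.05.

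In the nervous tissues the calls were on the 3 gluconeogenic genes. In each tissue of the cold experiment, the library with the highest hepatocyte marker sum also had the highest level of each of the 3. Below it the order did not always hold: in hypothalamus at 22 °C, replicate 1 had a sum of 105.7 CPM and 0 Pck1 counts, and replicate 3 had 71.9 CPM and 12. Those sums came mostly from list members other than Alb, the albumin gene. Alb alone was 0.981 CPM in that replicate 1 and 19.2 CPM in that replicate 3, the same order as Pck1. The part of hepatocyte RNA was not tested. In brain, 3 of 8 members were called lower at 10 °C (2.72% of all genes called, 2.45% lower): Pck1, G6pc and Fbp1, at -11.24, -10.51 and -9.76 (adjusted p = 0.706 each). Control replicate 2 had 1604 CPM of Pck1, 688 of G6pc and 743 of Fbp1, where the other 5 brain libraries had at most 0.344 CPM of any of the 3. Its 5 hepatocyte markers summed to 61327 CPM, near the liver mean of 61155 CPM, against 734 to 1102 CPM in the other brain libraries. In those libraries the sum came mostly from list members other than Alb and Apoh. Alb was 50394 CPM in control replicate 2 and 1.47 to 6.94 CPM in the others, and Apoh 1302.5 against 0.267 to 0.627 CPM. Without it none of the 3 genes passed the filter and 0 members were called, and the 5 others were at -0.01 (Bdh1), -0.03 (Oxct1), -0.12 (Acat1), 0.11 (Aacs) and 0.04 (Slc16a1). In hypothalamus, Pck1 was the 1 of 6 members called (0.578% of all genes), from 0, 3 and 12 counts at 22 °C to 9, 3 and 56 at 10 °C (2.45, SE 0.996, adjusted p = 0.782), and the library with 56 counts had 122 CPM of Alb, the serum albumin gene of hepatocytes. Without that library Pck1 was under the filter, and without control replicate 1 or 2 it was not called. In spinal cord 0 of 6 were called by edgeR (0.271% of all genes), with 1 at an unadjusted p of at most 0.05, Slc16a1 (-0.16, SE 0.0599, adjusted p = 0.78). Its control replicate 1 and cold replicate 3 had hepatocyte sums of 307.6 and 92.6 CPM. In brain at 34 °C 0 of 5 were called by edgeR (0.193% of all genes), and 0 at an unadjusted p of at most 0.05. Oxct1, by which neurons use ketone bodies, was at 0.01 (SE 0.04) in hypothalamus, 0.02 (SE 0.0414) in spinal cord and 0.03 (SE 0.0478) in warm brain.

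**Figure D5:**
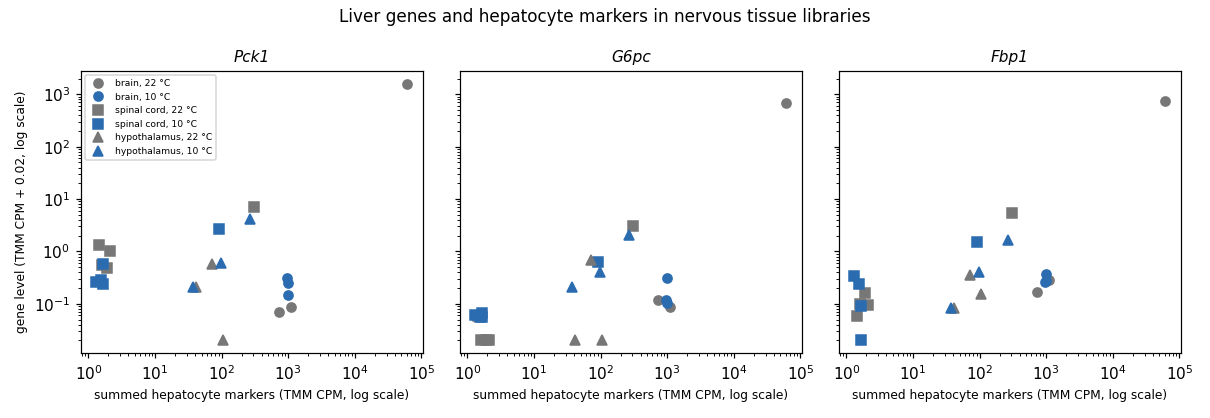
Pck1, G6pc and Fbp1 (vertical axis, TMM CPM plus 0.02, log scale) against the summed hepatocyte markers (horizontal axis, TMM CPM, log scale) in the libraries of brain, spinal cord and hypothalamus of the cold experiment. One brain library at 22 °C stands at the top right with 61327 CPM of the markers, and it also has the highest level of each gene. The sums of 734 to 1102 CPM in the other brain libraries hold little Alb (1.47 to 6.94 CPM).

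The wider pathways were counted from fixed lists that exclude the 8 members. Of the list for ketone use and cytosolic acetoacetate, which holds the fatty acid and cholesterol enzymes near Aacs, 7 of 9 tested genes were called higher in pgVAT at 10 °C (4.46% of all genes were), 6 of 9 in ingSAT (7.2%), 4 of 9 in iBAT (6%) and 4 of 8 in quadriceps (2.7%), while 0 of 9 were called in liver. With an adjusted p under 0.05 the numbers higher were 0, 2, 3 and 2. Over all genes, in either direction, that limit was met by 0%, 7.51%, 11.3% and 0.338%. In iBAT 1 gene of the list was called lower, Acat3 (-1.66, adjusted p = 0.0152), where 7.24% of all genes were. Its mean was low, 3.98 CPM at 22 °C and 1.29 CPM at 10 °C. The median log2 change of the list was 1.31 in pgVAT, against 0.03 over all genes tested, 0.76 against -0.01 in ingSAT, 0.36 against -0.02 in iBAT and 0.54 against 0.01 in quadriceps. In quadriceps Acly, which makes cytosolic acetyl-CoA, rose by 2.72 (adjusted p = 0.00539) and Fasn, the fatty acid synthase, by 2.47 (0.0395), against all 6 controls. Both were called in all 16 alternative settings, but neither kept an adjusted p under 0.05 in all of them. The part of the adipocyte markers given above for quadriceps was not tested. In iBAT at 34 °C, 4 of 9 were called lower and 1 higher (7.19% and 12.2% of all genes were). The lower ones included Fasn (-2.75, adjusted p = 0.0114), Acss2 (-1.97, 0.0131) and Acly (-1.96, 0.0173). The higher one was Acat3 (2.35, 0.00581), whose reads may be shared with its near-identical copy Acat2.

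Of the gluconeogenesis enzymes, most of which also serve glycolysis, 8 of 16 tested were called higher and 1 lower in iBAT at 10 °C. In ingSAT 7 of 16 were called higher and 1 lower. Over all genes, 6% were called higher and 7.24% lower in iBAT, and 7.2% higher and 9.14% lower in ingSAT. In ingSAT Fbp2, the muscle form of the bisphosphatase, rose by 1.64 (adjusted p = 0.0402) and Gpd1, which makes glycerol 3-phosphate, by 1.53 (0.0364). Fbp2 was low there, with a mean of 2.06 CPM at 22 °C and 6.49 CPM at 10 °C. The part of the muscle markers given above for ingSAT was not tested. In iBAT at 34 °C, 1 of 15 was called higher and 5 lower, against 12.2% and 7.19% of all genes. There Gyk, glycerol kinase, was at -3.06 (adjusted p = 0.000871) and Fbp2 at -2.01 (0.00103). In liver 0 of 16 enzymes were called at 10 °C (3.28% of all genes were). At 34 °C 1 of 15 was called in each direction (1.77% of all genes higher and 1.61% lower). Of the regulators, 4 of 9 were called lower in iBAT at 10 °C (7.24% of all genes were), led by Irs2, an insulin receptor substrate (-2.04, 0.0223). In ingSAT 2 of 11 regulators were called higher and 2 lower, against 7.2% and 9.14% of all genes.

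Of the ketogenesis list in ingSAT, 3 of 8 tested were called higher and 2 lower, against 7.2% and 9.14% of all genes. Hadhb, of fatty acid oxidation, rose by 1.45 (adjusted p = 0.00228). In liver 1 of 8 was called, higher, at 10 °C (0.74% of all genes were called higher) and 0 of 9 at 34 °C (3.38% were called). Of the monocarboxylate transport list, 3 of 11 were called higher and 2 lower in iBAT at 10 °C (6% and 7.24% of all genes). Among them were Bsg, the chaperone of the MCT1 transporter (1.74, adjusted p = 0.000598), and Slc16a7 (-1.96, 0.00251). In ingSAT 2 of 12 were called higher and 1 lower, against 7.2% and 9.14% of all genes. The 2 higher were Mpc1 (1.70, adjusted p = 0.00227) and Mpc2 (1.77, 0.00281), the mitochondrial pyruvate carrier.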

How the data were processed

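RNA sequencing was analysed from the raw gene counts that the authors deposited, whole-number counts per gene in 4 tables. Per the labels, reads were aligned with STAR 2.5.3a to mm10, counted with HTSeq 0.6p1 and checked with Picard 1.141. Bone marrow, spinal cord and the warm experiment used a stranded kit and the other tissues another kit. The 8-tissue table gives Ensembl identifiers, of which 21583 of 21647 were matched to symbols. All 106 libraries were used, in 16 comparisons of 10 °C or 34 °C with 22 °C in the same tissue.

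Each comparison was fitted across all genes with edgeR 4.0.16 (R 4.3.3): genes with an average log2 CPM above 0, TMM scaling, quasi-likelihood F test, two-sided. Calls needed a p no larger than 0.05 before adjustment and a change of more than 1.5-fold, and Benjamini-Hochberg adjusted values are over all genes tested. SE is the absolute log2 fold change divided by the square root of F. Differences between tissues were interaction contrasts in 1 model. The study's exact test, DESeq2 1.42.0, other filters and scalings, a replicate block and leaving out each library were alternatives. Scripts were tested on simulated data. Libraries of pooled mice give the spread between pools. Total counts per library, from 4262403 up, set the counting precision.

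The 8 genes and the lists were chosen with earlier results of these data known. Named besides the 8 are, per comparison, up to 6 list genes called with an adjusted p under 0.05 and the largest changes, the 3 genes most like each member, and markers that move with a result. Some list genes that this rule names are not reported here. Promoters are from RefSeq (GRCm38.p6) and gene positions from GENCODE.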

Additional observations from a re-analysis of the deposited data

Results flagged for a closer look

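Among 38 combinations of a gene and a group of 5 or 6 libraries, 10 held a library far from the others by Dixon's 95% limit. Chance passes that limit in about 1 in 20 independent groups. That rate does not hold here, since the combinations share libraries and some rest on counts near 0. Most of them, 6, are the liver genes in spinal cord. Control replicate 1 had 6.90 CPM of Pck1 (next 1.31), 3.06 of G6pc (next 0.0375) and 5.30 of Fbp1 (next 0.139), and its hepatocyte markers summed to 307.6 CPM. Cold replicate 3 had 2.61 CPM of Pck1 (next 0.56), 0.617 of G6pc (next 0.0467) and 1.52 of Fbp1 (next 0.319), with a hepatocyte sum of 92.6 CPM. The part of hepatocyte RNA was not tested.

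In quadriceps at 22 °C, warm-set library 1 had 97.8 CPM of Pck1 (next 42.6) and the highest adipocyte sum of the 6 controls, 552 CPM, and warm-set library 2 had 0.163 CPM of Fbp1 (next 0.0389), from 9 counts. In bone marrow at 22 °C, replicate 2 had 0.0578 CPM of G6pc, from 1 count where the others had 0, and 2.31 CPM of Fbp1 (next 2.77).

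The change of Aacs at 34 °C differed between liver and brown fat by 1.40 on the log2 scale, by the interaction test.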

How the results depend on the processing

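Of 143 counts of members recomputed under other settings, 115 stayed within 1.5 times and 28 moved. Of 2614 changes of single genes, 2546 kept their side of the limits, 49 lost the call and 19 gained it. The sign changed in 103, of which 0 were of called changes and 87 were with a library left out. With an adjusted p under 0.05 as the only limit, the members called went from 2 to 1 in iBAT, from 4 to 2 in ingSAT, from 1 to 0 in pgVAT and liver, from 2 to 0 in ileum, from 0 to 3 in bone marrow, from 3 to 0 in brain and from 1 to 0 in hypothalamus at 10 °C, and from 1 to 0 in liver and ileum at 34 °C. DESeq2 gave 1 in iBAT, 2 in pgVAT, 0 in brain and 0 in hypothalamus at 10 °C. The filterByExpr filter gave 0 in brain and 0 in hypothalamus. With library size alone, iBAT at 34 °C went from 4 to 1 and liver at 34 °C from 1 to 0. Quadriceps at 34 °C went from 0 to 1 with the exact test, DESeq2, filterByExpr or all genes over 1 count, and to 2 with its own 3 controls. At an unadjusted p, the differences between tissues gave 1 member for ingSAT, pgVAT and liver against iBAT at 10 °C, each from 0, and 3 for liver against iBAT at 34 °C. Of members that passed the filter in both tissues, those counts were 1, 0, 0 and 2. Same-numbered replicates had correlations of deviations from -0.686 to 0.475, with no common sign. With 3 libraries in most groups, that check cannot exclude a pairing. The replicate block moved 1 count, brain at 10 °C from 3 to 0. Leaving out 1 library gave 1 to 2 members in iBAT, 2 to 4 in ingSAT, 0 to 2 in pgVAT, 0 to 1 in liver, 1 to 2 in ileum, 1 in quadriceps, 0 to 1 in spinal cord, 0 to 3 in brain and 0 to 1 in hypothalamus at 10 °C, and 2 to 4 in iBAT, 0 to 1 in liver, 0 to 1 in ileum and 0 to 3 in quadriceps at 34 °C. For the differences between tissues it gave 0 to 2 for ingSAT against pgVAT and 0 to 1 for liver and for pgVAT against iBAT at 10 °C, the 1 in both being G6pc, which passed only through liver. Bone marrow was not refitted this way. The causes were not tested. With 3 libraries a group, levels near 1 CPM in pgVAT rest on few counts.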
